A study of Mus musculus with 7 samples.

Results

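Astrocytes clear glutamate, water and potassium from the tissue around neurons, and 9 genes that serve this work were followed in the contused mouse spinal cord. They are *Slc1a2*, *Slc1a3*, *Glul*, *Aqp4*, *Kcnj10*, *Gja1*, *Gjb6*, *Slc4a4* and *Aldh1l1*. They were chosen by name as astrocyte channels, carriers and enzymes of homeostasis and edema from the 21965 genes of the count table. All 9 were found in the table and passed the filter on low counts. With edgeR and all libraries, none of the 9 differed between the genotypes at an adjusted p under 0.05, as 1.57% of all genes tested did. DESeq2, which the study itself used, called *Glul* and *Aldh1l1*, and 9.14% of all genes it tested. In the libraries labelled *Bmal1*-/-, 7 of the 9 were higher and 2 were lower than in wild type (WT). Of all genes tested, 48.9% were higher. The edgeR estimates of the 9 over all 7 libraries ran from 0.47 lower to 0.56 higher on the log2 scale. Without WT replicate 3, 5 of the 9 were higher and 4 lower.

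RNASeq was performed on the 5 mm of cord around the epicenter of a moderate T9 contusion (50 kdyn, displacement of 400 to 600 μm) at 3 days post-injury (dpi). All mice were on a C57BL/6 background (the J substrain in the study's methods) and all were injured, so an uninjured level is not among the values given here. The *Bmal1*-/- mice (n = 3, 2 females and 1 male) carried the *Arntl* tm1Bra allele in the germline and came from crosses of heterozygotes, so the allele was not limited to astrocytes. The WT mice (n = 4, 2 females and 2 males) were ordered from the same supplier, apart from 1 littermate of the knockouts, so genotype and the source of the mice cannot be fully told apart. Each mouse gave 1 library.

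In these cells the work is divided as follows. Glutamate released by neurons is taken up by the transporters GLT-1 (*Slc1a2*) and GLAST (*Slc1a3*) and turned into glutamine by glutamine synthetase (*Glul*). Water crosses the end-feet on blood vessels through aquaporin-4 (*Aqp4*), and potassium enters through the inward rectifier Kir4.1 (*Kcnj10*). Connexin 43 (*Gja1*) and connexin 30 (*Gjb6*) join astrocytes by gap junctions, through which these solutes spread. The sodium bicarbonate cotransporter NBCe1 (*Slc4a4*) sets the pH on both sides of the membrane, and *Aldh1l1* encodes a folate enzyme that is widely used to mark astrocytes. In the injured cord, swelling of astrocyte end-feet and excess glutamate are known parts of the secondary damage.

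BMAL1 binds E-boxes in promoters, so the start regions of the genes were read for the E-box CACGTG, for CACGTT, which differs from it by the last base, and for AGGTCA, the core site bound by nuclear receptors such as those of the clock. Motifs were searched on both strands. CACGTT and CACGTG share all but the last base, and AGGTCA overlaps neither. RefSeq windows from 250 bases before to 50 bases after a start (build GRCm38.p6) were at hand for 8 of the 9 genes, in 9 windows. CACGTG was in 0 of the 9 windows and in 7.15% of 32851 windows of the same length. CACGTT was in 1 window (4.68% of all) and AGGTCA was in 4 (16.3% of all), those of *Slc1a2*, *Glul*, *Aldh1l1* and *Slc4a4*. A match in letters is a description and does not show that a factor is bound, and the genes have other starts. The windows of *Slc1a2* and *Aldh1l1*, and that of *Slc4a4* with AGGTCA, lie inside the gene and not at its annotated 5′ end. The windows of the 2 glutamate transporters and of glutamine synthetase are printed because these genes open the results below and differ in the direction of their estimates. They run 5′ to 3′ along the gene, with the motif in capitals. The window of *Slc1a2* is chr2:102706188-102706487 on the plus strand, with AGGTCA 44 bases after the start. This start is internal, as the gene is annotated from base 102658659. The window of *Slc1a3* is chr15:8710758-8711057 on the minus strand, with CACGTT on the opposite strand, so that it reads AACGTG here, 29 bases after the start. The window of *Glul* is chr1:153899679-153899978 on the plus strand, with AGGTCA 57 bases before the start.
Slc1a2: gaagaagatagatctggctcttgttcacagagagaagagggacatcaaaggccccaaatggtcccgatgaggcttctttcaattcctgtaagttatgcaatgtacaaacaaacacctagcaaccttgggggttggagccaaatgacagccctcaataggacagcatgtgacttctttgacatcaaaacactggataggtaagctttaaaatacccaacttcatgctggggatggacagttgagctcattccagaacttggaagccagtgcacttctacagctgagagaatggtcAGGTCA
Slc1a3: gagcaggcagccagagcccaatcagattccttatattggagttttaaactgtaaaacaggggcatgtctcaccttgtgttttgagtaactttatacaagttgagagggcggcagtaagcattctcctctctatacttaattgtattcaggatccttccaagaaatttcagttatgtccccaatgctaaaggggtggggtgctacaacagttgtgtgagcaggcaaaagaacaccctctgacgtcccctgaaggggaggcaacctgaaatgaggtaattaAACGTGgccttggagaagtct
Glul: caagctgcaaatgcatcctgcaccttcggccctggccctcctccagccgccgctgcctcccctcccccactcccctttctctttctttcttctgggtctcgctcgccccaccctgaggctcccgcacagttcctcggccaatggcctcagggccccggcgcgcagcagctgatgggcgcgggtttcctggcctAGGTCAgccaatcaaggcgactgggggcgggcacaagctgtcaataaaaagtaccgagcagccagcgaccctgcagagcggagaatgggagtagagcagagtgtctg

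The targeted gene was read first as a check of the labels. *Arntl* was counted at 24.1, 24.2 and 22.5 CPM (counts scaled by library size and TMM factors) under the label *Bmal1*-/-, while the 4 WT libraries gave 14.7, 15.3, 11.9 and 13.4 CPM. It was thus higher where the label says that the gene is lost (log2 fold change 0.77, SE 0.10, adjusted p = 0.0155, edgeR's quasi-likelihood test). With a library left out, its adjusted p ran from 0.00523 to 0.102 and missed the threshold without any 1 of the libraries labelled *Bmal1*-/- or without WT replicate 4. A gene count does not show which part of the transcript is read. In a separate group of mice, the study could not detect *Bmal1* mRNA by qPCR in the contused *Bmal1*-/- cord at dpi 3. Clock genes that BMAL1 is known to drive, named here after their values were seen, were lower under the label *Bmal1*-/-: *Nr1d1* by a log2 fold change of -2.51 (adjusted p = 0.000456) and *Dbp* by -1.85 (adjusted p = 0.00328). *Cry1*, a repressor of the clock, was higher (1.58, adjusted p = 0.000456). The groups are named below by their labels. The libraries held 38529644 to 44096737 counts, and the 9 genes held 1851 to 83075 counts per library, so the spread between mice sets the error. WT replicate 3 stood apart from the other 6 libraries on the first principal components. Its summed neuron markers were at 2328 CPM, against 4165 to 5687 CPM in the other WT libraries. Its macrophage markers were at 14220 CPM against 6320 to 9410 CPM, and its oligodendrocyte markers were at 35690 CPM against 24463 to 32096 CPM. Main values are therefore also given without it. In bulk tissue, fewer astrocytes and less RNA per astrocyte cannot be told apart.

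The question for each gene was whether its level at dpi 3 differed between the genotypes. Of the 15743 genes in the fit, 1.57% had an adjusted p under 0.05, with 0.654% of all genes higher under the label *Bmal1*-/- and 0.915% lower. Of the 9 genes, 0 passed with edgeR or with limma-voom. At an unadjusted p under 0.05, where 20.9% of all genes lie, there were 5 of the 9, 3 higher and 2 lower. A log2 fold change above 0 was seen for 7 of the 9 and for 48.9% of all genes tested, though *Gja1* was at -0.001 with upper-quartile factors. The median log2 fold change of the 9 genes was 0.32, against -0.01 for all genes tested. With WT replicate 3 left out, 5 of the 9 were higher and 4 lower, and the median was 0.16. The 2 groups of libraries did not overlap for 5 of the 9 genes, against 26.9% of all genes. For 4 genes all libraries labelled *Bmal1*-/- lay above all WT libraries (13.4% of all genes), and for 1 gene all lay below (13.5% of all genes). DESeq2 called 2 of the 9, *Glul* and *Aldh1l1*, and 9.14% of the 16347 genes it tested. Without WT replicate 3, edgeR also called 2 of the 9, *Slc1a3* and *Aldh1l1*, and 4.66% of the 15664 genes then tested.

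**Figure D1:**
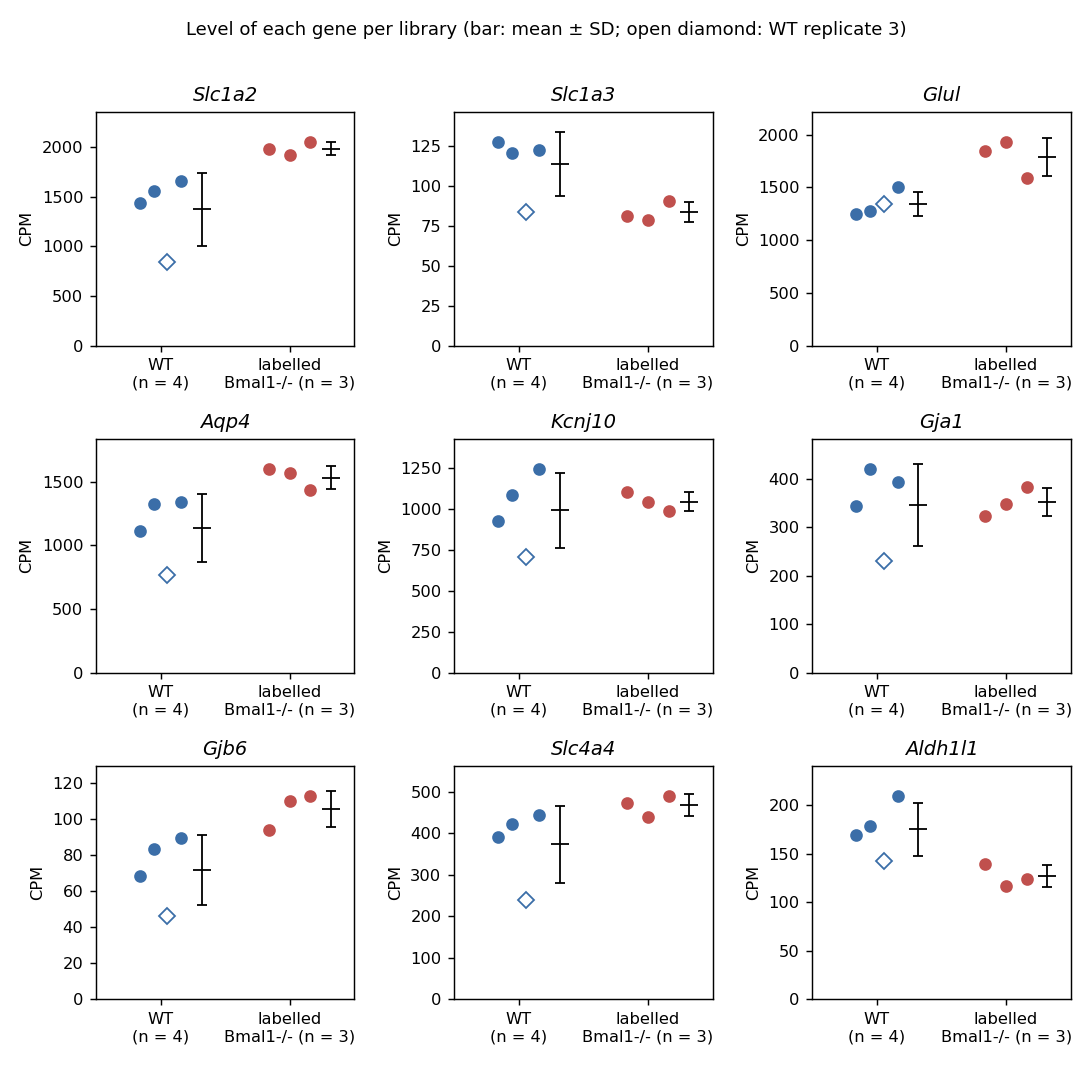
Level of each of the 9 genes in CPM (y axes, from 0) in the 4 WT libraries (blue) and the 3 libraries labelled Bmal1-/- (red), with the mean ± SD beside each group. The open diamond is WT replicate 3, the lowest WT library for every gene but Glul. Slc1a2, Glul, Aqp4 and Gjb6 lie higher in every red library than in any blue one, and Aldh1l1 lies lower.

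Of the 2 glutamate transporters, one was higher and the other lower. *Slc1a2* (ENSMUSG00000005089, chromosome 2, 102658659 to 102790784, plus strand, GRCm38) encodes GLT-1, which carries most glutamate uptake in the adult forebrain. It was at 1983, 1921 and 2052 CPM under the label *Bmal1*-/- and at 1434, 1564, 842 and 1665 CPM in WT replicates 1 to 4. All 3 libraries labelled *Bmal1*-/- were above all 4 WT libraries, and WT replicate 3 was far below the other WT libraries, at 54.2% of their mean. The means were 1985 ± 65.5 CPM (SD, n = 3) and 1376 ± 369 CPM (SD, n = 4). The log2 fold change was 0.53 (SE 0.23, 95% interval 0.001 to 1.06), and the adjusted p was 0.239. With WT replicate 3 left out, it was 0.35 (SE 0.09, adjusted p = 0.0763).

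*Slc1a3* (ENSMUSG00000005360, chromosome 15, 8634124 to 8710764, minus strand) encodes GLAST, the transporter of radial glia, Bergmann glia and young astrocytes. It was at 81.4, 78.9 and 90.5 CPM under the label *Bmal1*-/- and at 127, 121, 83.7 and 123 CPM in WT replicates 1 to 4. The groups overlapped through WT replicate 3 alone, which lay among the libraries labelled *Bmal1*-/-. The means were 83.6 ± 6.07 and 114 ± 20.1 CPM, the log2 fold change was -0.44 (SE 0.15, 95% interval -0.79 to -0.10) and the adjusted p was 0.176. On leaving out WT replicate 3, the log2 fold change was -0.56 (SE 0.06) and the gene passed the test, with an adjusted p of 0.0067. The remaining WT libraries then had a coefficient of variation (SD as a share of the mean) of 2.76%.

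*Glul* (ENSMUSG00000026473, chromosome 1, 153899944 to 153909723, plus strand) encodes glutamine synthetase, which in the cord is made by astrocytes and by some oligodendrocytes. It was at 1842, 1928 and 1585 CPM under the label *Bmal1*-/- and at 1244, 1276, 1339 and 1508 CPM in WT. The groups did not overlap, and for this gene alone among the 9 WT replicate 3 was not the lowest WT library, at 99.8% of the mean of the other 3. The means were 1785 ± 179 and 1342 ± 118 CPM. The log2 fold change was 0.41 (SE 0.12, 95% interval 0.13 to 0.69), with an adjusted p of 0.141, and it was also 0.41 without WT replicate 3 (adjusted p = 0.0994). DESeq2 gave an adjusted p of 0.00377 for *Glul* and of 0.0705 for *Slc1a3*. The opposite-strand gene *Teddm2* covers 3.49% of the exon length of *Glul*. The strand setting of the counting is not given in the sources used here, so reads of such a gene cannot be told from those of its partner.

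Of the water and potassium channels, *Aqp4* was higher without passing the test and the estimate of *Kcnj10* was near 0 with a wide interval. *Aqp4* (ENSMUSG00000024411, chromosome 18) encodes the water channel of the end-feet. It was at 1598, 1564 and 1432 CPM under the label *Bmal1*-/- and at 1109, 1326, 769 and 1343 CPM in WT. The groups did not overlap, with the lowest library labelled *Bmal1*-/- close above the 2 highest WT libraries. The means were 1531 ± 88.0 and 1137 ± 267 CPM, and the log2 fold change was 0.43 (SE 0.20, 95% interval -0.03 to 0.89, adjusted p = 0.259). Without WT replicate 3 it was 0.28 (adjusted p = 0.162).

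*Kcnj10* (ENSMUSG00000044708, chromosome 1, 172341210 to 172374085, plus strand) encodes Kir4.1, through which astrocytes take up the potassium that firing neurons release. It was at 1102, 1046 and 989 CPM under the label *Bmal1*-/- and at 928, 1088, 709 and 1245 CPM in WT. The libraries labelled *Bmal1*-/- lay within the WT range. The means were 1046 ± 56.2 and 992 ± 229 CPM, and the log2 fold change was 0.08 with a 95% interval of -0.36 to 0.51 (adjusted p = 0.819). With WT replicate 3 left out, its estimate was on the other side of 0, at -0.06.

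Of the connexins, *Gjb6* was higher without passing the test and the estimate of *Gja1* was near 0 with a wide interval. *Gja1* (ENSMUSG00000050953, chromosome 10, 56377330 to 56402513, plus strand) encodes connexin 43, which many other cell types of the cord also make. It was at 324, 349 and 382 CPM under the label *Bmal1*-/- and at 343, 420, 229 and 394 CPM in WT. The libraries labelled *Bmal1*-/- again lay within the WT range. The means were 352 ± 29.4 and 346 ± 84.3 CPM, and the log2 fold change was 0.02 with a 95% interval of -0.44 to 0.49 (adjusted p = 0.955). It was -0.13 without WT replicate 3. *Gjb6* (ENSMUSG00000040055, chromosome 14, 57123303 to 57133611, minus strand) encodes connexin 30, which is largely limited to astrocytes. It was at 93.7, 110 and 113 CPM under the label *Bmal1*-/- and at 68.2, 83.1, 46.2 and 89.4 CPM in WT. The groups did not overlap, though the lowest library labelled *Bmal1*-/- and the highest WT library were close. The means were 105 ± 10.2 and 71.7 ± 19.2 CPM. The log2 fold change was 0.56 (SE 0.21, 95% interval 0.06 to 1.05, adjusted p = 0.208), and 0.39 (adjusted p = 0.105) without WT replicate 3.

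*Slc4a4* (ENSMUSG00000060961, chromosome 5, 88886818 to 89239653, plus strand), the bicarbonate cotransporter, was at 474, 438 and 490 CPM under the label *Bmal1*-/- and at 390, 422, 239 and 445 CPM in WT. The groups overlapped by a single pair of libraries. The means were 468 ± 26.4 and 374 ± 93.1 CPM, and the log2 fold change was 0.32 (SE 0.20, 95% interval -0.15 to 0.80, adjusted p = 0.362). On leaving out WT replicate 3, it was 0.16 (adjusted p = 0.261).

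*Aldh1l1* (ENSMUSG00000030088, chromosome 6, 90486427 to 90600203, plus strand), which oxidises formyl-tetrahydrofolate, was at 139, 117 and 124 CPM under the label *Bmal1*-/- and at 169, 179, 143 and 209 CPM in WT. All 3 libraries labelled *Bmal1*-/- lay below all 4 WT libraries. The means were 127 ± 11.4 and 175 ± 27.4 CPM, and the log2 fold change was -0.47 (SE 0.13, 95% interval -0.78 to -0.16, adjusted p = 0.133). It passed with DESeq2 (adjusted p = 0.0252) and without WT replicate 3 (log2 fold change -0.55, adjusted p = 0.0296). An antisense gene, *Gm15756*, covers 11.1% of its exon length and a further noncoding gene on the same strand, *Gm45901*, covers 2.33%, so part of this count is uncertain.

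**Figure D2:**
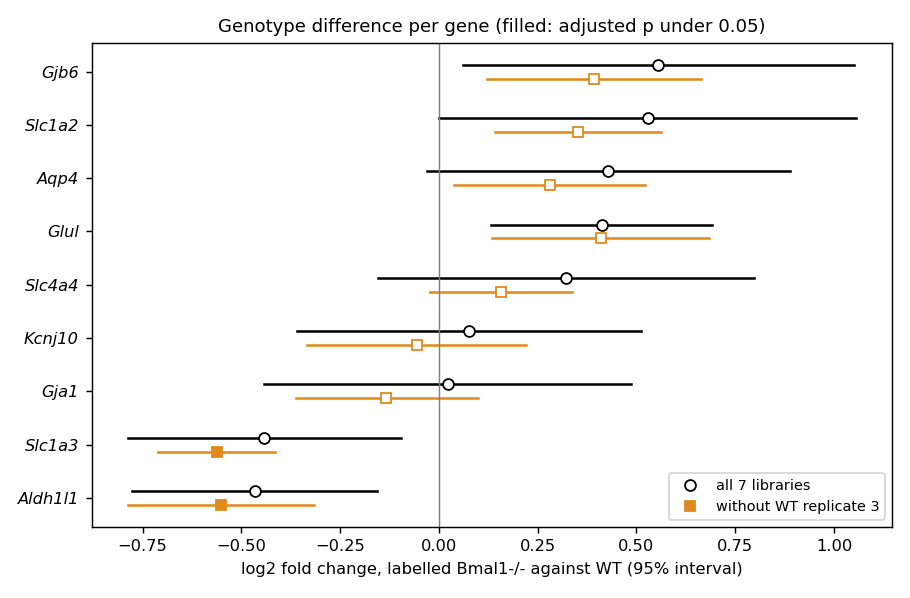
Log2 fold change of each gene (x axis, libraries labelled Bmal1-/- against WT, with 95% intervals) in all 7 libraries (black circles) and without WT replicate 3 (orange squares). Filled symbols passed an adjusted p of 0.05, which holds for Slc1a3 and Aldh1l1 without that library and for no gene with all 7. Without it, the estimates of Kcnj10 and Gja1 move to the other side of 0.

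The spread of the 9 genes differed in size between the groups. Their coefficients of variation were 3.30 to 10.01% under the label *Bmal1*-/- and 8.76 to 26.8% in WT. WT replicate 3 was the lowest WT library for 8 of the 9 genes and WT replicate 4 was the highest for 7. Without WT replicate 3, the WT coefficients were 2.76 to 14.6%. In that set 4 genes lay wholly above and 2 wholly below WT, where 15.5% and 15.3% of all genes tested do so. Summed over the 9 genes, the level was 7257 to 7637 CPM under the label *Bmal1*-/- and 4401 to 7021 CPM in WT. These are 0.726 to 0.764% and 0.440 to 0.702% of the scaled counts. The sum is weighted to the abundant genes *Slc1a2*, *Glul*, *Aqp4* and *Kcnj10*. *Slc1a3* and *Aldh1l1*, which were lower, add little to it, with means of 83.6 and 127 CPM under the label *Bmal1*-/-.

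Levels of different genes can be compared only per length, here as CPM per kb of exon. The lengths hold all annotated exons and not only those of the transcripts made, so the order depends on them. In WT the order was *Glul* (404 ± 35.4 CPM per kb), *Kcnj10* (184 ± 42.3), *Aqp4* (182 ± 42.9), *Slc1a2* (105 ± 28.1), *Aldh1l1* (38.7 ± 6.07), *Slc4a4* (34.6 ± 8.60), *Gja1* (33.8 ± 8.22), *Gjb6* (26.8 ± 7.18) and *Slc1a3* (13.3 ± 2.35). Only the steps from *Glul* to *Kcnj10*, from *Slc1a2* to *Aldh1l1* and from *Gjb6* to *Slc1a3* were wider than the range of the libraries. The ranges of the other neighbours overlapped, though *Aqp4* was above *Slc1a2*, *Aldh1l1* above *Slc4a4* and *Gja1* above *Gjb6* within each of the 4 WT libraries. *Glul* ranked the highest, *Slc1a2* the fourth and *Slc1a3* the lowest in each of the 7 libraries. In the libraries labelled *Bmal1*-/- the order was *Glul* (537 ± 53.8 CPM per kb), *Aqp4* (246 ± 14.1), *Kcnj10* (193 ± 10.4), *Slc1a2* (151 ± 4.99), *Slc4a4* (43.2 ± 2.44), *Gjb6* (39.4 ± 3.81), *Gja1* (34.3 ± 2.86), *Aldh1l1* (28.0 ± 2.51) and *Slc1a3* (9.79 ± 0.711). Here only *Slc4a4* and *Gjb6*, and *Gjb6* and *Gja1*, overlapped as neighbours, and *Gjb6* was above *Gja1* within each of the 3 libraries. *Aldh1l1* was in the fifth or the sixth place in the WT libraries and in the eighth place in all 3 libraries labelled *Bmal1*-/-.

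Because WT replicate 3 was low for most of the genes at once, ratios of genes of like role were also taken within each library, as a description with no test. The ratio of *Slc1a2* to *Slc1a3* per kb was 3.99, 3.98 and 3.88 on the log2 scale under the label *Bmal1*-/- and 2.87, 3.07, 2.71 and 3.14 in WT. Every library labelled *Bmal1*-/- had more *Slc1a2* per *Slc1a3* transcript than any WT library, with geometric mean ratios of 15.5 and 7.73. The log2 ratio of *Gja1* to *Gjb6* was -0.15, -0.27 and -0.18 under the label *Bmal1*-/- and 0.39, 0.40, 0.37 and 0.20 in WT. Per kb of all annotated exons, connexin 43 was thus above connexin 30 in all WT libraries and below it in all libraries labelled *Bmal1*-/-. The side of 0 depends on the summed exon lengths (10257 and 2674 bases), since *Gja1* had the higher CPM in every library. The log2 ratio of *Aqp4* to *Kcnj10* was 0.33, 0.38 and 0.33 under the label *Bmal1*-/- and 0.05, 0.08, -0.09 and -0.10 in WT, again without overlap. WT replicate 3 lay within the range of the other WT libraries for the last 2 ratios and was the lowest WT library for the ratio of *Slc1a2* to *Slc1a3*. Without it, the log2 differences of the group means were 0.92 for *Slc1a2* to *Slc1a3*, -0.53 for *Gja1* to *Gjb6* and 0.33 for *Aqp4* to *Kcnj10*. Each ratio restates the difference between the estimates of its 2 genes. Of single genes, 26.9% did not overlap between the groups, and the share over pairs of genes was not counted.

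**Figure D3:**
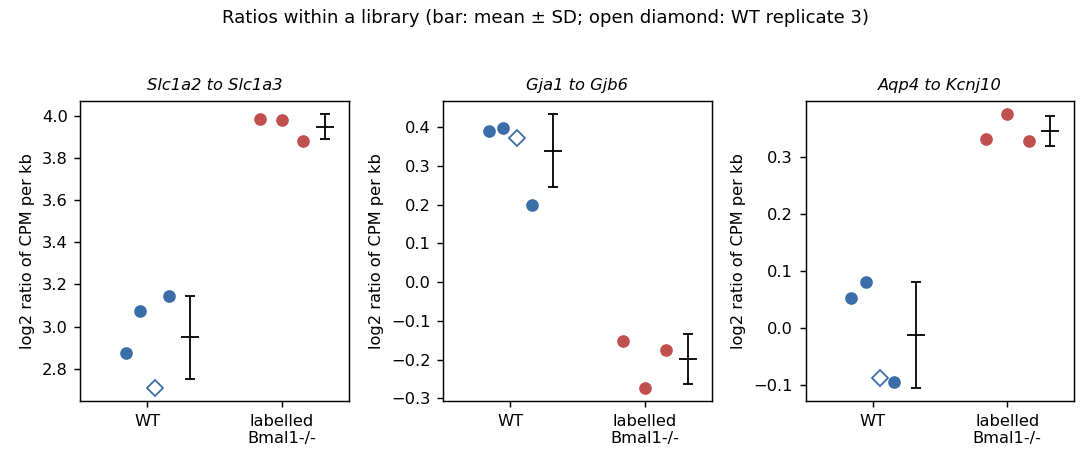
Log2 ratio of CPM per kb (y axes) of Slc1a2 to Slc1a3, Gja1 to Gjb6 and Aqp4 to Kcnj10 within each library, blue for WT (n = 4) and red for libraries labelled Bmal1-/- (n = 3), with the mean ± SD. The open diamond is WT replicate 3. In none of the 3 ratios do the groups overlap, and the group means differ by 1.00, -0.54 and 0.36. Of single genes, 26.9% have groups that do not overlap, and the share over pairs of genes was not counted.

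The genes were further set against 18 astrocyte identity genes that are not among the 9, by subtracting the mean log2 CPM of those 18 in the same library. Among the 18, 8 were higher, 10 were lower and 0 passed the test, with a median log2 fold change of -0.01 (3 were higher at an unadjusted p under 0.05), and all 18 were detected in the tissue. DESeq2 called 1, *Cldn10*. Their summed level was 5837 to 6087 CPM under the label *Bmal1*-/- and 4184 to 5883 CPM in WT, with WT replicate 3 the lowest. Relative to them, *Slc1a2* was 0.45 higher in the libraries labelled *Bmal1*-/- on the log2 scale, *Gjb6* 0.46, *Aqp4* 0.33 and *Slc4a4* 0.23, each without overlap. *Slc1a3* was at -0.75 ± 0.09 against -0.19 ± 0.12 in WT and *Aldh1l1* at -0.15 ± 0.16 against 0.44 ± 0.08, both without overlap. *Glul*, *Kcnj10* and *Gja1* overlapped on this scale. With the summed level of the 18 genes as the base, *Slc4a4* overlapped too, and the other genes kept their order of groups. In CPM, 26.9% of all genes did not overlap, and the share relative to the identity genes was not counted.

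The 9 genes varied together across libraries in part. Within groups, the deviations of log2 CPM from the group mean had a median Pearson r of 0.87 over the 36 pairs of genes, and 34 pairs were positive. With WT replicate 3 left out, the median was 0.52, and 30 pairs were positive. These are descriptions over 7 and 6 libraries, in which the genes share library, depth and tissue composition. The mean standardised level of the 9 genes was lowest in WT replicate 3 (-1.53) and highest in WT replicate 4 (0.61), with the libraries labelled *Bmal1*-/- between, at 0.24 to 0.31. Among 10979 genes at a mean of at least 10 CPM, the 5 whose log2 CPM was most like this profile over the 7 libraries were *Arnt2* (Pearson r 0.988, Spearman rho 0.857), *Slc7a10* (0.978 and 0.750), *Psd2* (0.9748 and 0.607), *Clmn* (0.9745 and 0.714) and *Tet1* (0.974 and 0.893). *Slc7a10* encodes an amino acid exchanger of astrocytes. Among the 10979 genes, 321 had a Pearson r above 0.9, so these 5 are not singular. The 2 libraries farthest from the median of the profile were WT replicates 3 and 1. Without them r was 0.727 for *Arnt2*, 0.669 for *Slc7a10*, 0.095 for *Psd2*, 0.784 for *Clmn* and 0.653 for *Tet1*. All 5 were thus lower without those libraries, and that of *Psd2* rests on them.

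Other genes of the same pathways were taken from 8 lists of 121 genes in all, each tested within the fit over all genes. With all 7 libraries 4 of the 121 passed, beside 1.57% of all genes tested. Without WT replicate 3 those 4 and 10 others passed, beside 4.66% of all genes then tested. DESeq2, whose calls are given per list, called 9.14% of all genes it tested. None of the 4 passed with a term for sex or with a replicate block, and each was lost in most fits that left out 1 library. Of 18 glutamate and glutamine genes, 14 were higher and 4 lower, 0 passed, and the median log2 fold change was 0.21 (0.11 without WT replicate 3). At an unadjusted p under 0.05, where 20.9% of all genes lie, there were 4 higher and 2 lower. DESeq2 called 6, of which *Aldh5a1*, *Slc1a1*, *Got1* and *Got2* were higher and *Slc38a5* and *Slc1a5* lower. *Aldh5a1*, the last enzyme of GABA breakdown, was at 154, 155 and 201 CPM under the label *Bmal1*-/- and at 87.3, 90.7, 48.9 and 83.3 CPM in WT. It had the lowest p of this list without passing (log2 fold change 1.13, SE 0.22, adjusted p = 0.0571), and it passed without WT replicate 3 (0.96, adjusted p = 0.00718), as did the neuronal glutamate transporter gene *Slc1a1* (0.42, adjusted p = 0.0181). The opposite-strand gene *4430402I18Rik* covers 31.9% of the exon length of *Slc1a1*. An antisense gene covers 14.1% of the exon length of *Aldh5a1*. *Slc38a5*, a glutamine transporter gene, was at 6.25 ± 2.14 CPM against 16.2 ± 7.40 CPM in WT (adjusted p = 0.140).

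Of 14 genes for water channels and end-foot anchoring, 8 were higher and 6 lower, with a median of 0.01 (-0.02 without WT replicate 3). The 1 that passed was *Lrrc8a*, a subunit of the volume-regulated anion channel, at 71.0 ± 2.48 CPM against 58.4 ± 0.963 CPM in WT (log2 fold change 0.28, SE 0.05, adjusted p = 0.0441). It shares 66.2% of its exon length with *Gm28035* on the same strand, so its count is uncertain. It passed in 4 of 15 alternatives, was missed by limma-voom (adjusted p = 0.0539), and passed in 1 of 7 fits that left out a library, the one without WT replicate 3 (adjusted p from 0.0276 to 0.220 over the 7). *Aqp9*, a channel for water and glycerol, was at 7.56 ± 1.38 against 5.06 ± 0.575 CPM (adjusted p = 0.120). *Aqp1* was at 7.65 ± 10.3 against 29.7 ± 21.5 CPM, with overlap (adjusted p = 0.305). On leaving out WT replicate 3, *Dtna*, which encodes the dystrophin partner dystrobrevin alpha, passed as well (0.31, adjusted p = 0.0367). DESeq2 called *Lrrc8a*, *Aqp9* and *Dtna*.

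Of 14 genes for potassium, sodium and chloride, 8 were higher and 6 lower, 0 passed (2 higher and 1 lower at an unadjusted p under 0.05) and the median was 0.16 (0.05 without WT replicate 3). *Kcnk1*, a potassium leak channel gene, was at 90.5, 81.7 and 89.8 CPM under the label *Bmal1*-/- and at 55.8, 60.9, 40.2 and 63.7 CPM in WT. It did not pass with all libraries (log2 fold change 0.66, SE 0.15, adjusted p = 0.0811) and passed without WT replicate 3 (0.54, adjusted p = 0.00975). DESeq2 called *Kcnk1* and *Slc8a1*, the sodium calcium exchanger gene, both higher. *Atp1b1*, a sodium pump subunit that neurons make in quantity, was at 1023 ± 159 against 636 ± 223 CPM (adjusted p = 0.245), and the opposite-strand gene *Nme7* covers 18.7% of its exon length. Of 11 gap junction genes, 3 were higher and 8 lower, 0 passed with edgeR or DESeq2 (1 higher and 2 lower at an unadjusted p under 0.05) and the median was -0.08 (-0.11 without WT replicate 3). *Gja4*, an endothelial connexin gene, was at 5.44 ± 0.721 against 10.1 ± 4.35 CPM (adjusted p = 0.183) and *Gjd2*, a neuronal one, at 8.94 ± 1.46 against 5.22 ± 1.75 CPM (adjusted p = 0.208). Without WT replicate 3, *Gja5* passed (1.18, adjusted p = 0.0129).

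Of 14 bicarbonate and proton carriers, 9 were higher and 5 lower, with a median of 0.09 (0.02 without WT replicate 3). The 1 that passed, *Slc4a5*, encodes a further sodium bicarbonate cotransporter and rose from 2.01 ± 0.758 CPM in WT to 6.21 ± 0.364 CPM in the libraries labelled *Bmal1*-/- (log2 fold change 1.63, SE 0.29, adjusted p = 0.0466). The call was kept in 8 of 15 alternatives, but in only 2 of 7 with a library left out, those without WT replicate 3 or 4 (adjusted p from 0.00947 to 0.182). *Slc4a1*, the anion exchanger of red cells, was at 2.02 ± 0.867 against 8.35 ± 4.85 CPM (adjusted p = 0.101). *Slc4a8* and the lactate carrier gene *Slc16a1* passed without WT replicate 3 (0.46 and 0.36), and DESeq2 called these 2, *Slc4a5* and *Slc4a1*. Of 15 folate and serine enzymes, 4 were higher and 11 lower, with a median of -0.13 (-0.08 without WT replicate 3). *Phgdh*, which opens serine synthesis and is rich in astrocytes, was the 1 that passed: it fell from 82.4, 85.4, 75.0 and 90.1 CPM in WT to 59.7, 61.5 and 63.3 CPM in the libraries labelled *Bmal1*-/- (log2 fold change -0.44, SE 0.07, adjusted p = 0.0369). The call was kept in 7 of 15 alternatives and in 1 of 7 with a library left out, that without WT replicate 3 (adjusted p from 0.00599 to 0.191). DESeq2 called *Phgdh* and also *Mthfd2*, a mitochondrial folate enzyme gene, both lower.

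Of 17 reactive astrocyte genes, 5 were higher and 12 lower, with a median of -0.26 (-0.10 without WT replicate 3). The 1 that passed, the asparaginase gene *Aspg*, rose from 22.4 ± 2.00 CPM in WT to 31.6 ± 1.31 CPM (log2 fold change 0.50, SE 0.09, adjusted p = 0.0419). The call was kept in 6 of 15 alternatives and in 1 of 7 with a library left out, that without WT replicate 3 (adjusted p from 0.0281 to 0.193). *Steap4* was at 3.29 ± 1.42 against 7.47 ± 2.60 CPM (adjusted p = 0.155) and *Tnc*, a matrix protein gene, at 105 ± 17.2 against 193 ± 55.7 CPM (adjusted p = 0.109). *Tnc* passed without WT replicate 3 (-0.66, adjusted p = 0.0358). DESeq2 called 8 of the 17, with the intermediate filament gene *Gfap*, *Serpina3n* and *Aspg* higher and *Tnc*, *Timp1*, *Nes*, *Cd44* and *Steap4* lower. Among the identity genes, *Cldn10* was at 36.0 ± 5.07 against 18.2 ± 4.78 CPM (log2 fold change 0.98, adjusted p = 0.0811) and passed without WT replicate 3 (0.81, adjusted p = 0.0123), and *Ttyh1* was at 613 ± 45.3 against 405 ± 112 CPM (adjusted p = 0.194).

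**Figure D4:**
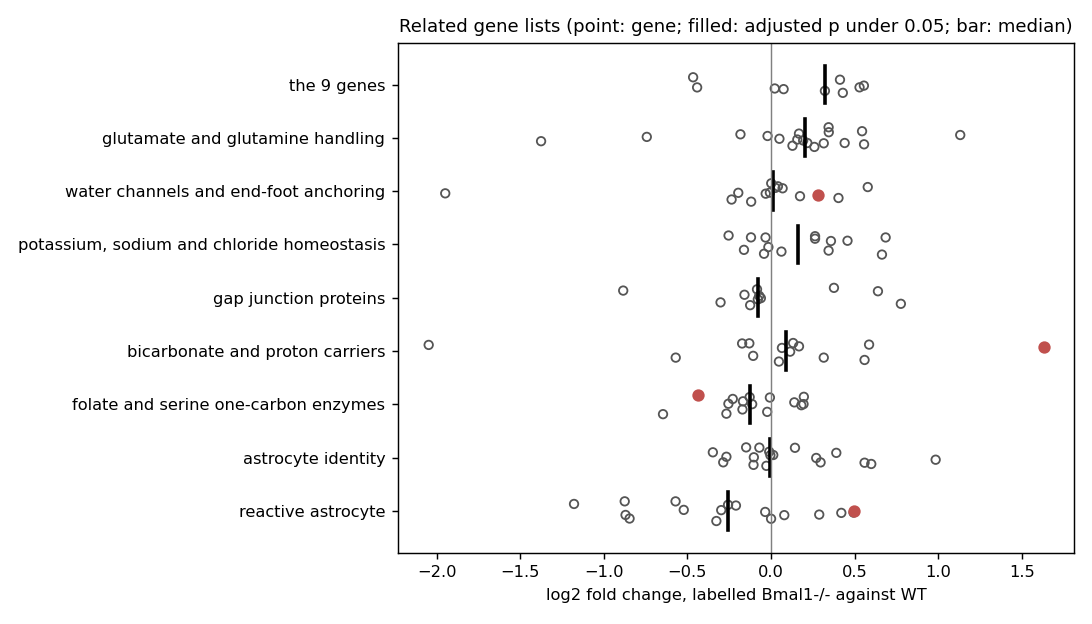
Log2 fold change (x axis, libraries labelled Bmal1-/- against WT, all 7 libraries) of every tested gene of the 9 genes and of the 8 related lists. Each point is a gene, filled red where the adjusted p was under 0.05, and the bar is the median of the list. Filled points are Lrrc8a, Slc4a5, Phgdh and Aspg, and the medians run from -0.26 for reactive astrocyte genes to 0.32 for the 9 genes.

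Markers of other cell types were read beside these results, and 2 of them passed with all 7 libraries. All 10 neuron markers were higher in the libraries labelled *Bmal1*-/-, 0 of them passed, and their summed level was 5755 to 6901 CPM against 2328 to 5687 CPM in WT. Of 9 endothelial markers 8 were lower and 1 passed, the junction gene *Cdh5*, with a summed level of 485 to 546 against 556 to 869 CPM. Of 10 macrophage and monocyte markers 9 were lower and 0 passed, with sums of 7489 to 8758 against 6320 to 14220 CPM. Of 10 oligodendrocyte markers 7 were higher and 0 passed (24283 to 29845 against 24463 to 35690 CPM). Markers of oligodendrocyte progenitors were 5 of 8 higher (1037 to 1102 against 800 to 1058 CPM), of microglia 2 of 8 (1377 to 1581 against 1387 to 1811 CPM), of pericytes 3 of 7 (280 to 348 against 352 to 415 CPM) and of ependymal cells 3 of 7 (55.2 to 61.6 against 52.1 to 60.2 CPM). None of these passed with edgeR. Of 9 fibroblast and meningeal markers 8 were lower and 0 passed, with sums of 385, 2251 and 307 CPM in replicates 1 to 3 labelled *Bmal1*-/- against 1148 to 1885 CPM, so that replicate 2 stood far above the other 2. Of 5 Schwann cell markers tested 5 were lower and 1 passed, *Cdh19* (168 to 229 against 269 to 585 CPM). At an unadjusted p under 0.05, where 20.9% of all genes lie, there were 1 neuron, 1 oligodendrocyte and 1 ependymal marker, all higher. There were also 4 macrophage, 4 fibroblast, 4 endothelial and 5 Schwann cell markers, all lower. Of the 4 pericyte markers there, 2 were higher and 2 lower, and there were 0 markers of progenitors and microglia. Without WT replicate 3, the neuron marker *Gad1* passed (higher), as did the macrophage marker *Mrc1*, the endothelial markers *Cdh5*, *Kdr* and *Tek* and the Schwann cell markers *Cdh19* and *Prx* (all lower). The part of these cell types in the values of the 9 genes was not tested.

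**Figure D5:**
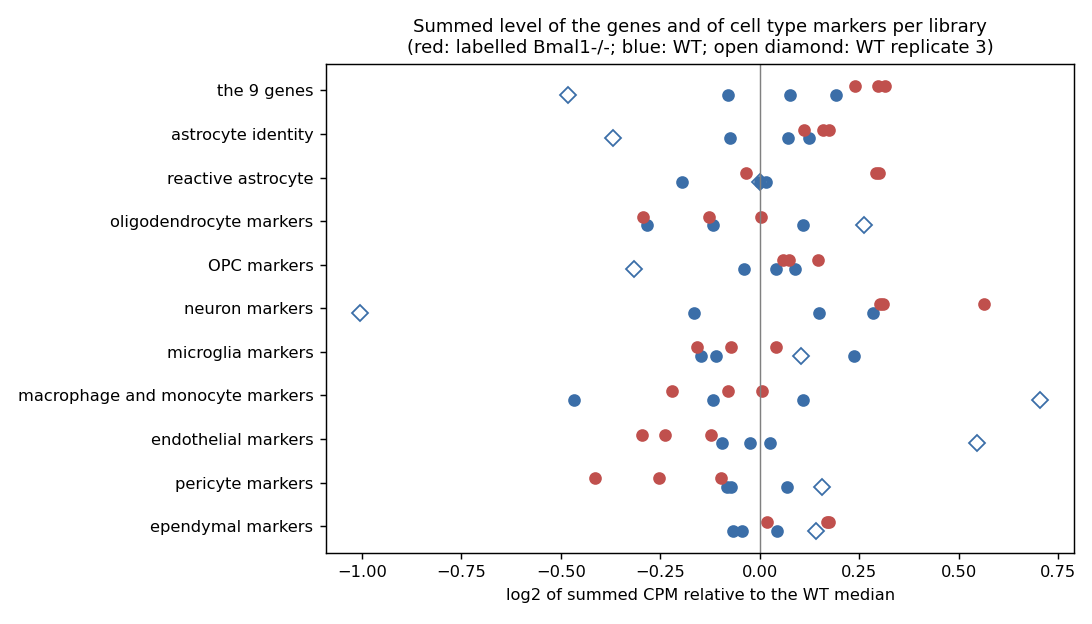
Summed CPM of the 9 genes and of astrocyte and other cell type lists in each library, on a log2 scale relative to the WT median (x axis), red for libraries labelled Bmal1-/- (n = 3) and blue for WT (n = 4). The open diamond is WT replicate 3, which lies lowest for the 9 genes, astrocyte identity genes, neuron markers and OPC (oligodendrocyte progenitor) markers. It lies highest for macrophage, endothelial, oligodendrocyte and pericyte markers. Sums are weighted to the abundant genes of a list. In the reactive astrocyte list, Gfap alone has a mean of 11642 CPM under the label Bmal1-/- and 8702 CPM in WT, while 12 of the 17 genes are lower. Fibroblast and Schwann cell sums are given in the text only.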

How the data were processed

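RNASeq was performed on 1 library per mouse, from 3 mice labelled *Bmal1*-/- and 4 WT mice at dpi 3. Poly-A RNA was made into stranded libraries by the authors, who used Tophat2 for alignment to GRCm38. Reads per gene were obtained with HTSeq 0.10.0, which the submitters' processing notes list beside FastQC 0.10.1. What the authors deposited are raw read counts that were not normalized. The strand setting and the annotation release used for counting are not given in the sources used here. Totals of 38529644 to 44096737 counts per library leave the spread between mice as the main error, and p-values measure that spread.

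Genes with low counts were removed with edgeR's filterByExpr on genotype (15743 of 21965 kept). After TMM scaling, genotype was the only term of edgeR's quasi-likelihood test, and p-values were adjusted by Benjamini-Hochberg over all genes tested, with a threshold of 0.05 (edgeR 4.0.16, limma 3.58.1, R 4.3.3). Log2 CPM used a prior count of 2. CPM per kb used the summed exon length of GENCODE release M21, which matched 21939 of the 21965 identifiers. The method was tested on simulated data.

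The 9 genes and all lists were chosen with earlier results of these data known. Named beside the 9 genes and *Arntl* were the called genes of each related list (at most 4), the 2 genes of each list with the largest change at a mean of at least 1 CPM, and the 5 genes most like the mean profile at a mean of at least 10 CPM. Genes called only by DESeq2 or only without WT replicate 3 were named after their values were seen. Alternatives were DESeq2 1.42.0, limma-voom, RLE and upper-quartile factors, a minimum of 1 count in total and a minimum mean of 10 counts. Others were a term for sex, a block for the replicate number, and each of the 7 libraries left out in turn. The study itself called its genes with DESeq2 and RLE scaling, so the DESeq2 values are those nearest to its method. The overlap counts, pair correlations, ratios and lists without WT replicate 3, and the alternatives of single related genes, were chosen after seeing the data. Replicate numbers name no shared litter or day, and no paired design was assumed. Python 3.11.15 with matplotlib 3.10.9 drew the plots. The promoter of *Aqp4* and 1 gene that meets the naming rule are not reported here.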

Additional observations from a re-analysis of the deposited data

Results flagged for a closer look

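In groups of 4 libraries, a library was singled out when its gap to the nearest other library exceeded Dixon's limit as a share of the range. This was tested in 41 groups and met in 8. Chance gives about 1 in 20 for a single group, but the 41 groups share the same 4 WT libraries and many genes. The count of 8 therefore cannot be set against that rate, and most of the 8 fell on WT replicate 3. In WT replicate 3, *Slc1a3* was at 83.7 CPM against 121 to 127 CPM in the other 3 WT libraries. Relative to astrocyte identity genes, *Slc1a2* was at 3.08 on the log2 scale in that library (others 3.48), and *Slc4a4* was at 1.26 (others 1.57 to 1.60). Its summed glutamate and glutamine genes were at 1915 CPM (others 2795 to 2963 CPM) and its summed water channel and end-foot genes at 1087 CPM (others 1359 to 1392 CPM). Its summed endothelial markers were at 869 CPM (others 556 to 605 CPM). In WT replicate 4, the log2 ratio of *Gja1* to *Gjb6* was 0.20 (others 0.37 to 0.40). In WT replicate 1, summed reactive astrocyte genes were at 13277 CPM (others 15213 to 15381 CPM).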

How the results depend on the processing

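Across 15 alternatives, 127 of 135 log2 fold changes of the 9 genes kept their direction and side of the threshold, 4 passed it and 4 were reversed. DESeq2 called 573 genes higher and 921 lower and 2 of the 9 genes, *Glul* and *Aldh1l1*. Leaving out 1 library gave 30 to 291 genes higher, 27 to 439 lower and 0 to 2 of the 9 genes, and the 2 without WT replicate 3 were *Slc1a3* and *Aldh1l1*. *Gja1* reversed with upper-quartile factors (-0.001) and ranged from -0.13 to 0.12 when a library was left out, and *Kcnj10* from -0.056 to 0.203. The causes were not tested. The median of the 9 genes ran from 0.16 to 0.46, the first without WT replicate 3.

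With a replicate block over the shared numbers, 0 genes were called higher and 0 lower (1590 at an unadjusted p under 0.05, with 2 residual degrees of freedom), 0 of the 9 genes passed (3 at an unadjusted p under 0.05), and their median was 0.46. Same-numbered libraries are also of the same sex, so the block holds sex as well. Their deviations correlated at r of -0.17, 0.18 and -0.30, which cannot show whether they share a day or batch. Except for *Kcnj10* and *Gja1*, each of the 9 genes kept its direction in all alternatives. *Slc1a2* ran from 0.35 to 0.68, *Aqp4* from 0.28 to 0.55, *Gjb6* from 0.39 to 0.71 and *Slc4a4* from 0.16 to 0.46. None of these passed in any alternative. *Glul* ran from 0.35 to 0.49, *Slc1a3* from -0.56 to -0.38 and *Aldh1l1* from -0.55 to -0.37.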
